A study of Homo sapiens with 8 samples.

Results

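The MMP25 and MMP25-AS1 locus is a stretch of chromosome 16 in which a metalloproteinase gene and an antisense long noncoding RNA gene overlap on opposite strands. RNA bound by RBFOX2 there was measured by eCLIP, in which RNA and protein are crosslinked by ultraviolet light. The protein is then pulled down by immunoprecipitation (IP), and its bound RNA is sequenced next to an input sample kept without the pull-down. Members of the locus are the deposited peaks whose midpoint lies inside the RefSeq span of either gene. They number 137 of 1118316 peaks in all, with 113 on the minus strand and 24 on the plus strand. The locus was selected from these same data for the height of its enrichment, so its folds are given as a description and carry no test.

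The study used HEK293T, an established human embryonic kidney cell line, with 4 IP libraries against RBFOX2 and 4 inputs, numbered 1 to 4 in both groups. Per the labels, cells were crosslinked with 254 nm light at a dose of 400 mJ per cm2, and 2% of each sample was kept as its input. Each IP list held between 267691 and 288305 called peaks, with the values of the IP set against its own input. No sample carried a knockdown, a treatment or a tagged protein that the labels name, and no IP with an unrelated antibody was analysed here. The labels do not say whether the numbered samples were separate cultures, so the SD over 4 libraries may be technical.

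RBFOX2 is a splicing regulator of the RBFOX family, which binds the RNA element UGCAUG or its core GCAUG, mostly in introns beside alternative exons, where its position goes with inclusion or skipping of the exon. MMP25, also named MT6-MMP, is a membrane-type matrix metalloproteinase held at the cell surface by a glycosylphosphatidylinositol anchor and known best from neutrophils. MMP25-AS1 is a long noncoding RNA transcribed against it. Antisense RNAs overlap a gene on the other strand, so that only a method that keeps the strand, as eCLIP does, can assign a read to either of them.

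On chromosome 16 the MMP25 span runs from 3046561 to 3060726 (14166 nt, plus strand) and the MMP25-AS1 span from 3052125 to 3059370 (7246 nt, minus strand), which places the antisense gene wholly inside the span of MMP25. Another annotated gene, LOC124900372, runs from 3053354 to 3059370, is listed as protein-coding, and shares the strand and the start of MMP25-AS1. Peaks on the minus strand therefore cannot be divided between MMP25-AS1 and LOC124900372 where both spans are present, and the table of spans holds no exons, so exonic and intronic positions are not given. Coordinates are 1-based on GRCh38, and distances are counted downstream from the annotated start of MMP25-AS1 at 3059370.

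The window around that start is shown because it is where the RNA on the strand of the enrichment begins in the annotation. It spans chr16:3059321-3059620 on the minus strand of GRCh38.p14, is credited to RefSeq, and is written 5′ to 3′ along MMP25-AS1 from 250 bases before the start to 50 bases from the start on, with the single GCATG in capitals.

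MMP25-AS1 start window: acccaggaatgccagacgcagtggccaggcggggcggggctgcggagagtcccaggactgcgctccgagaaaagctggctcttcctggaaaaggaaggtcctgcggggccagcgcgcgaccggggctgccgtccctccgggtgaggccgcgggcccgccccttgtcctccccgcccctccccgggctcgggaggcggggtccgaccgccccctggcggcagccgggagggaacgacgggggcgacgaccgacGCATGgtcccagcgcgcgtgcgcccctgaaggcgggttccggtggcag

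The window of LOC124900372 holds the same letters. GCATG occurs 1 time in it on the strand of MMP25-AS1, at 3059364 to 3059368, just inside the annotated start, and 0 times on the other strand. Of 35116 start windows of 300 bases in the table, 19.6% hold GCATG on the strand of their gene and 29.5% on either strand. The longer TGCATG, which contains GCATG, is not in this window, and 5.23% of the windows hold it on the strand of their gene. No called peak of the 4 libraries overlapped the window (0 peaks), and the called minus-strand peak nearest to the start ended 751 nt downstream of it. The sequence under the peaks was not analysed here, so these counts say nothing about the motif in the bound RNA.

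Peaks with a log2 fold (IP over input) of 3 or more and a −log10 p of 3 or more, both the authors' own values, are called enriched here. On the minus strand 18, 25, 18 and 19 of the 23, 36, 25 and 29 called peaks of replicates 1 to 4 were enriched (mean 20.0 ± 3.37, SD, n = 4). In the whole lists 0.861%, 0.848%, 0.789% and 0.775% of called peaks met the same limits, shares that are printed for scale only, because the locus was chosen on these values. On the plus strand, which carries MMP25, 0 of 5, 6, 8 and 5 called peaks were enriched. The highest log2 fold was larger on the minus strand in each library, at 7.92, 7.41, 7.58 and 8.57 against 2.58, 2.00, 2.00 and 1.58 on the plus strand. These maxima are taken over more peaks on the minus strand, for whose height the locus was chosen. The folds of the strands overlapped in each library, since the lowest minus-strand values were 1.58, 0.59, 1.32 and 1.00.

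**Figure D1:**
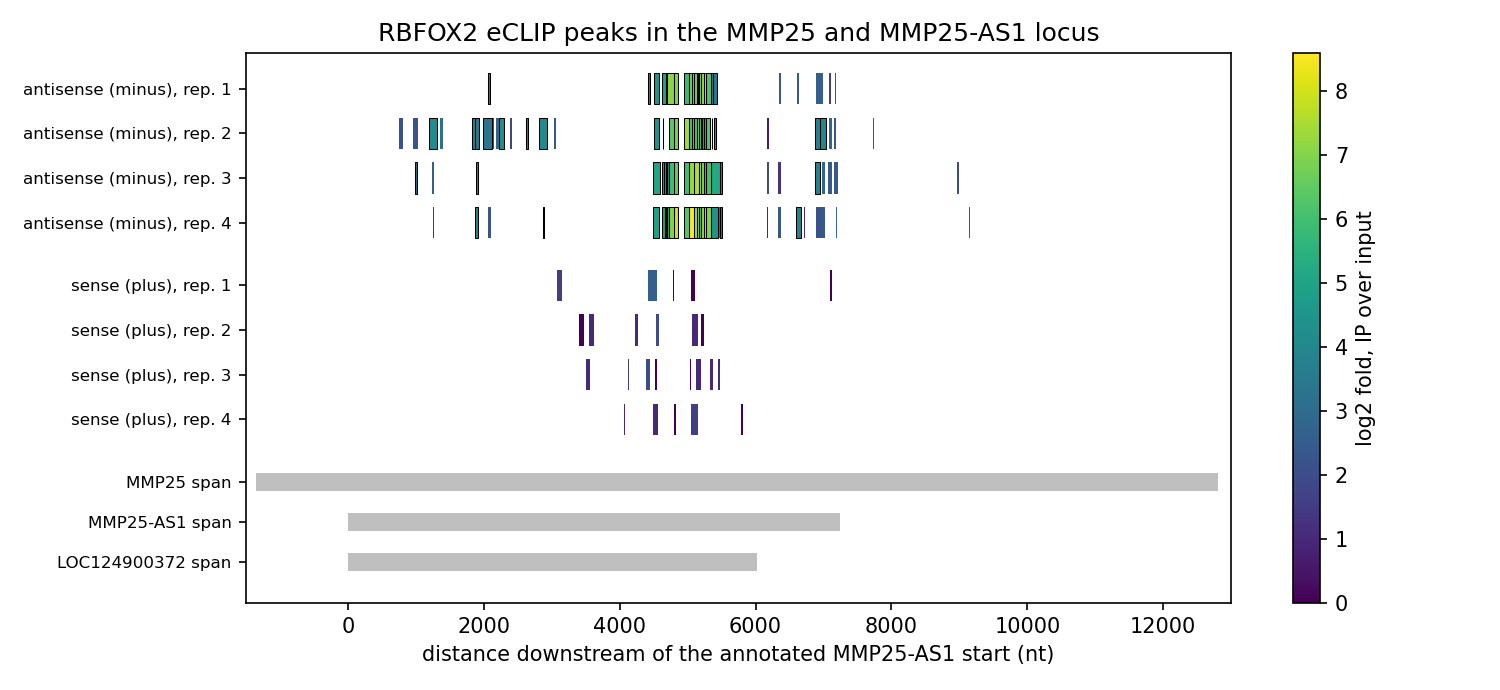
Peaks of the locus by strand and replicate, placed by their distance in nt downstream of the annotated MMP25-AS1 start, with the colour giving the log2 fold of IP over input, a black edge marking enriched peaks and grey bars giving the gene spans. The brightest peaks of the 4 replicates stack between 4421 and 5510 nt on the antisense strand, and the sense strand holds no edged peak.

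All 80 enriched minus-strand peaks had their midpoint inside the MMP25-AS1 span, and 76 of them inside the span of LOC124900372 as well. Of the 113 called minus-strand peaks, 110 lay inside the MMP25-AS1 span and 3 lay beyond its annotated end, still within MMP25, at log2 folds of 2.00, 2.32 and 2.32. The lowest log2 fold of a minus-strand peak was 0.59, so that all 113 lay above 0, some with a −log10 p as low as 0. The share of peaks above 0 in the whole lists was not computed. Grouping called minus-strand peaks across gaps of at most 500 nt, a rule chosen after the values were seen, gave 5 stretches, of which 3 were called in all 4 libraries. They are described below in the direction of antisense transcription.

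The first stretch, nearest to the antisense start, lay 751 to 3055 nt downstream (3056315 to 3058619). Its number of enriched peaks and the length under them varied most between libraries among the 3 stretches, and its highest log2 fold varied least. It held 1, 14, 3 and 4 called peaks in replicates 1 to 4, of which 1, 7, 2 and 2 were enriched. The length under enriched peaks was 29, 594, 65 and 59 nt, so replicate 2 stood far above the other 3 libraries, which lay close together. The highest log2 fold was 3.52, 4.25, 3.91 and 3.70 (mean 3.84 ± 0.31, SD, n = 4).

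Merging overlapping enriched peaks of the 4 libraries gave 8 regions in this stretch, and 0 of them were enriched in all 4. The region with the most support, at 3057434 to 3057504, was enriched in 3 replicates, with log2 folds of 3.46, 3.91 and 3.70 in replicates 2, 3 and 4 and no called peak in replicate 1. Replicate 2 entered 7 of the 8 regions and was alone in 4 of them. The eighth, at 3058350 to 3058383, was enriched in replicate 3 alone at a log2 fold of 3.0 (−log10 p of 5.97), where replicate 2 had a called peak of 2.20.

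The second stretch, from 4421 to 5510 nt downstream (3053860 to 3054949, 1090 nt), carried the bulk of the signal. It held 17, 16, 15 and 17 called peaks, and 17, 16, 15 and 16 of these were enriched. The 1 peak of 65 that missed the limits, at 3053894 to 3053927 in replicate 4, had a log2 fold that lies just under 3, with a −log10 p of 4.31. Enriched peaks covered 805, 643, 864 and 825 nt (mean 784 ± 97.3, SD, n = 4). That was 96.5%, 86.6% and 86.9% of the enriched minus-strand length of the locus in replicates 1, 3 and 4, and 46.1% in replicate 2, where the stretch near the start took up most of the rest.

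Of the 1090 positions, 643 were under an enriched peak in all 4 libraries, 126 in 3, 59 in 2, 69 in 1 and 193 in none. The 193 positions in no enriched peak were also in no called peak of any library, and they formed 4 gaps of 91, 19, 35 and 48 nt. The widest gap, at 3054423 to 3054513, separated the strongest region from the next one in all 4 libraries. The 643 shared positions fell into 6 runs, the longest of 380 nt at 3054040 to 3054419. Over that run the log2 fold averaged 6.65, 6.33, 6.74 and 7.20 in replicates 1 to 4, and its lowest value in any library was 5.26.

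Of 6 merged regions in this stretch, 4 were enriched in all 4 replicates. In antisense order the first, at 3054783 to 3054877, had log2 folds of 4.49, 4.46, 5.06 and 4.86 (mean 4.72 ± 0.29, SD, n = 4), with each library contributing 1 peak. The next, at 3054692 to 3054747, had 4.91, 5.17, 4.81 and 4.91 (mean 4.95 ± 0.16, SD, n = 4). These 2 regions overlapped in their ranges over libraries and do not differ beyond their spread.

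The third region, at 3054514 to 3054672, had log2 folds of 7.08, 6.91, 6.59 and 8.0 (mean 7.14 ± 0.60, SD, n = 4). The fourth and longest, at 3053894 to 3054422 (529 nt), had 7.92, 7.41, 7.58 and 8.57 (mean 7.87 ± 0.51, SD, n = 4), or 242-, 170-, 191- and 379-fold on the linear scale. These are the highest of 8 to 12 peaks per library in the fourth region and of 2 or 3 in the third, and the ranges overlap. By the mean log2 fold over positions enriched in all 4 libraries the order was not the same. The 124-nt run of the third region averaged 7.05, 6.62, 6.26 and 7.48, above the 380-nt run of the fourth in replicates 1, 2 and 4 and below it in replicate 3. The order of these 2 regions is therefore not settled, while the highest log2 folds of both lay above the range of the 2 weaker regions. The remaining 2 regions sat at the edges of the stretch. The one at 3053860 to 3053893 was enriched in replicates 3 and 4 (4.17 and 3.58), and the one at 3054926 to 3054949 in replicate 1 (3.52).

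**Figure D2:**
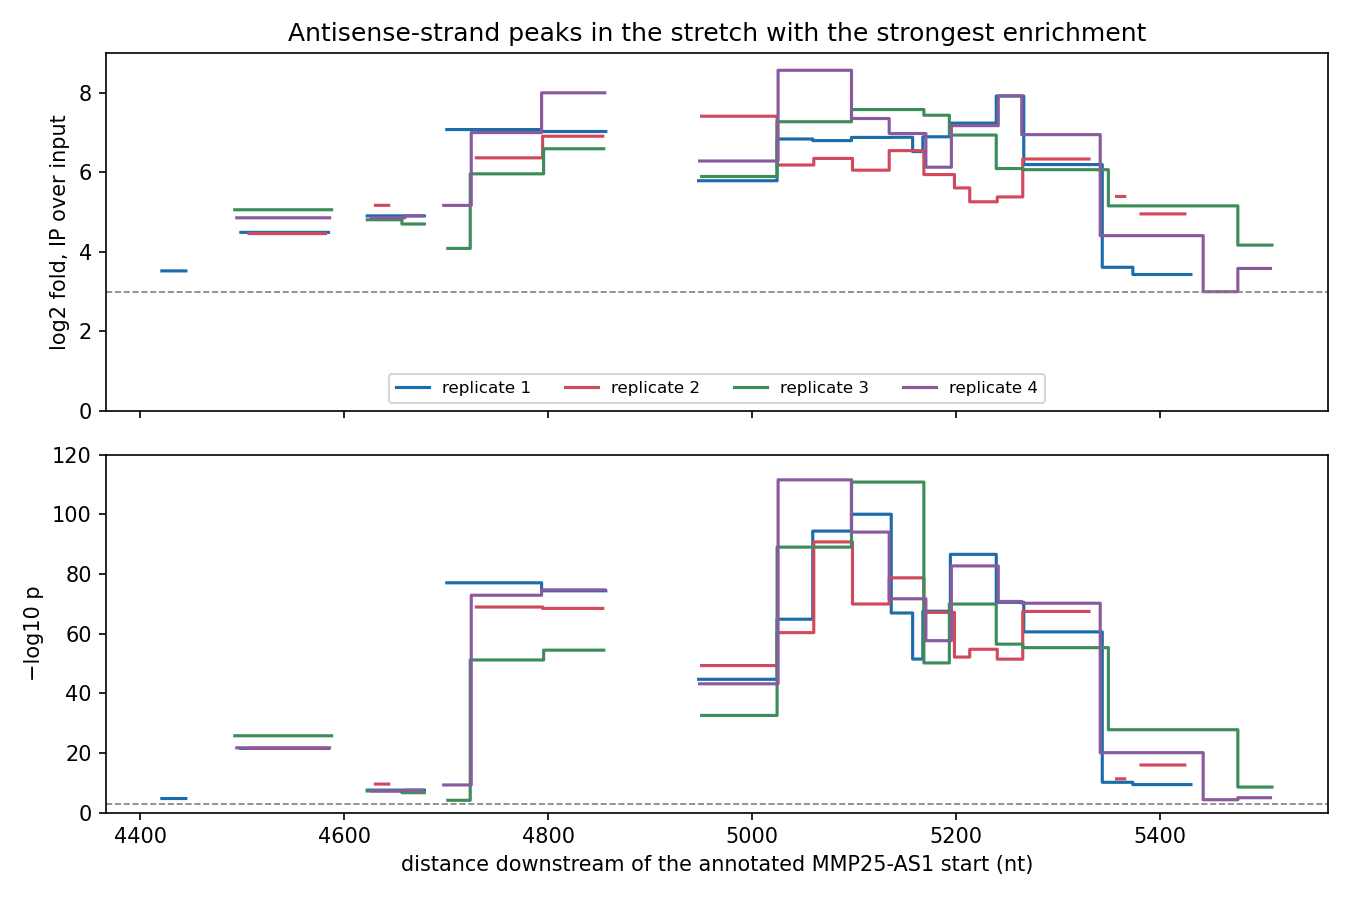
Log2 fold (top) and −log10 p (bottom) of the antisense-strand peak over each position from 4421 to 5510 nt downstream of the MMP25-AS1 start, 1 line per replicate, with the enrichment limits dashed and blanks where a replicate had no called peak. All 4 lines are blank over the same 91 nt, but they do not always step in the same direction. Between 5024 and 5025 nt the line of replicate 2 steps down from 7.41 to 6.18, while those of replicates 1 and 3 step up. The replicates reach their highest log2 fold at different places.

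The strongest region was divided into 12, 12, 8 and 9 enriched peaks in replicates 1 to 4, between 8 and 127 nt long. They abutted in replicates 1, 3 and 4, while in replicate 2 the peak at 3054005 to 3054012 had a gap on each side. The peak with the highest log2 fold did not sit at the same place in the 4 libraries. It was at 3054104 to 3054130 in replicate 1, at 3054346 to 3054419 in replicate 2, at 3054202 to 3054272 in replicate 3 and at 3054273 to 3054344 in replicate 4. The peak with the highest −log10 p varied less in position, at 3054234 to 3054272, 3054272 to 3054309, 3054202 to 3054272 and 3054273 to 3054344, with −log10 p from 90.7 in replicate 2 to 112 in replicate 4. Averaged over the 4 libraries at each shared position, the log2 fold was highest at 3054273 to 3054309, where it was 7.25. The SD between libraries at a single position had a median of 0.67 on the log2 scale over the 643 shared positions.

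The borders between abutting peaks recurred between libraries. Replicates 1 to 4 had 11, 9, 7 and 8 such borders inside the strongest region, 35 in all, and 18 of them (51.4%) had a border within 2 nt in each of the other 3 libraries. Counted as places, the borders fell at 14 positions, of which 5 were found in all 4 replicates, 2 in 3, 2 in 2 and 5 in 1. The border at 3054271 to 3054272, for example, was placed at 3054272 in replicates 1, 3 and 4 and at 3054271 in replicate 2. Among the 135 other regions enriched in all 4 replicates that had a border in each library, 154 of 1602 borders (9.61%) recurred in this way, and 5 of the 135 regions reached the share of this one. Of the same 135, 4 held at least as many borders as the strongest region.

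A large part of the folds were whole numbers. Relative to the commonest fold of its own library, the linear fold was within 0.01 of a whole number for 43 of the 80 enriched minus-strand peaks, and the highest values were 242.0, 170.0, 191.0 and 379.0 in replicates 1 to 4. The same share over all enriched peaks was not computed, so the count cannot be read as particular to this locus. Read counts per peak were not analysed here, so depth is unknown and the folds have no counting interval. Whether the highest folds rest on inputs with very few reads was not tested, and the ranks by log2 fold given below carry the same limit.

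The last stretch shared by the 4 libraries lay 6162 to 7208 nt downstream (3052162 to 3053208), at the annotated end of MMP25-AS1. It held 5, 5, 6 and 7 called peaks, of which 0, 2, 1 and 1 were enriched. The highest log2 fold was 2.58, 4.00, 3.81 and 3.81, lowest in replicate 1 and close together in the other 3. Its 2 regions were enriched in 2 and 1 replicates. At the first of them, 3052340 to 3052496, replicates 2 and 3 reached 4.00 and 3.81, and replicates 1 and 4 had called peaks of 2.58 and 2.32 at the same place. Positions were thus shared here more widely than the enrichment call.

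**Figure D3:**
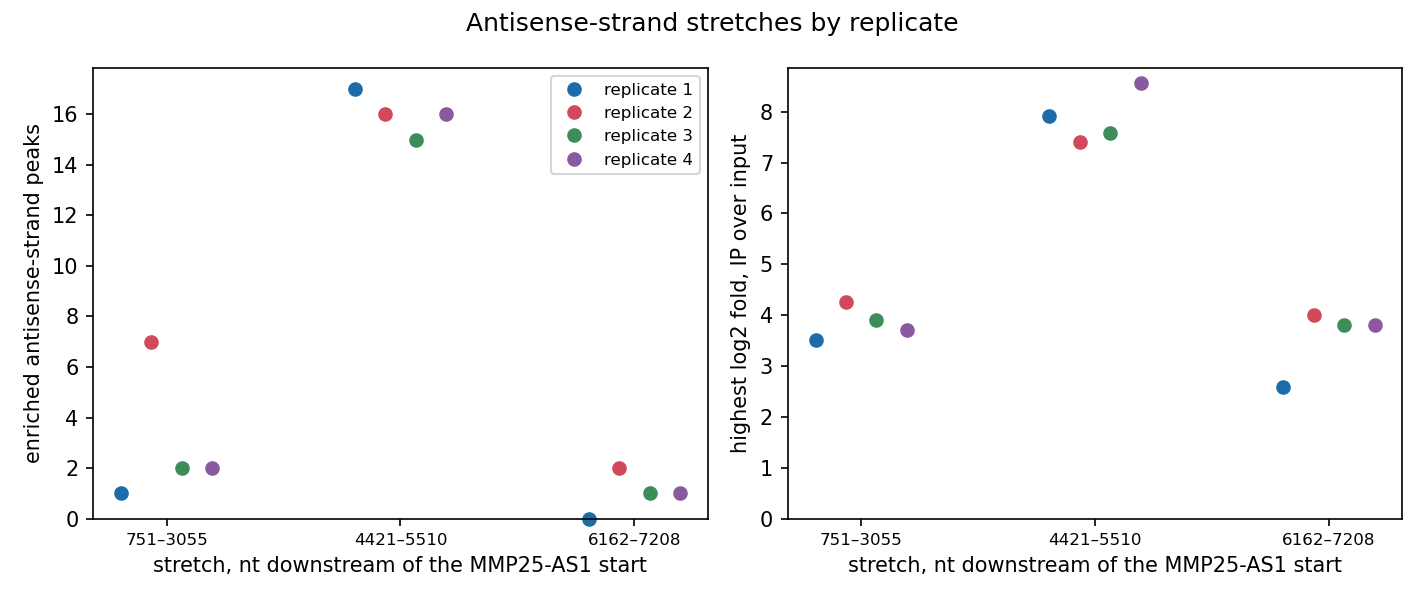
Number of enriched antisense-strand peaks (left) and highest log2 fold (right) in the 3 stretches called in all 4 libraries, ordered by distance in nt downstream of the MMP25-AS1 start, 1 point per replicate. The middle stretch holds 15 to 17 enriched peaks in each replicate, and replicate 2 stands alone with 7 in the stretch nearest to the start.

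MMP25 itself, read on the plus strand, had few and weak peaks. All 24 lay inside the part of MMP25 that overlaps MMP25-AS1, between 3052240 and 3056295, and the first 5679 nt of the MMP25 span held none on this strand. Their log2 fold was within 0.01 of 0 for 9 of the 24 and above 0.5 for the other 15, and their −log10 p never exceeded 0.903. The median log2 fold per library was -0.000866, 1.00, 1.00 and 1.00. By position, 15 of the 24 lay across from an enriched minus-strand peak of some library. Expression was not measured, so a low number of plus-strand peaks does not separate little MMP25 RNA from little binding to it.

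Within the whole lists the locus stood at or near the top. Its highest log2 fold had rank 4, 2, 3 and 1 in replicates 1 to 4, and 10, 8, 8 and 9 of the 50 highest log2 folds of each library were minus-strand peaks of this locus. Its highest −log10 p had rank 3, 2, 3 and 3 among enriched peaks. The median log2 fold of its enriched peaks was 6.66, 5.26, 5.53 and 6.13, against 4.00, 3.91, 3.91 and 4.00 over all enriched peaks, and 64 of its 80 enriched peaks lay above the median of their own library. The enriched peaks were also short, with a median length of 38.5, 44.0, 52.5 and 37.0 nt against 96.0, 94.0, 91.0 and 91.0 nt. Many of these peaks abut and share their source, so their number is not a number of separate binding sites.

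**Figure D4:**
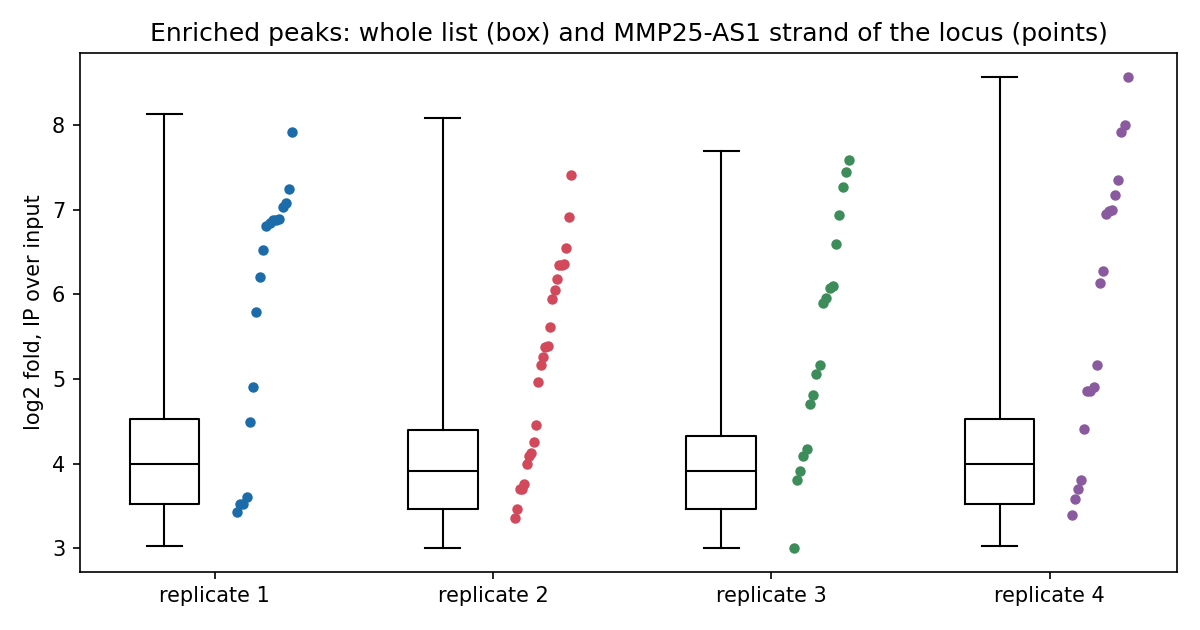
Log2 fold of enriched peaks by replicate, with boxes for the whole list (median, quartiles, and whiskers to the lowest and highest value) and points for the minus-strand peaks of the locus in rising order. The points run from near the lower end of each whisker to the upper end or close to it, and in replicate 4 the highest point, at 8.57, is the highest of the list.

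Of the enriched minus-strand peaks, 90.7%, 72.0%, 81.5% and 82.5% in replicates 1 to 4 overlapped an enriched peak of another replicate (mean 81.7% ± 7.67, SD, n = 4, where each value averages 3 comparisons). The same share over all enriched peaks was 63.1%, 60.9%, 62.4% and 65.4%. In the strongest stretch alone it was 94.1%, 100%, 91.1% and 91.7%, an alternative added after seeing the data. Enriched peaks covered 643 to 864 of the 1090 nt of that stretch in each library, so an overlap of 1 nt is easily met there. Because the locus was also chosen on its enrichment, the shares are printed for scale only. At 50% mutual overlap the share of the locus was 64.7%, and the whole list was not run at that setting. Merged over libraries, the 80 peaks formed 16 regions, with 4 enriched in all 4 replicates and 12 in fewer. In the whole series 552 of 3371 regions (16.4%) were enriched in all 4. By the mean of their highest log2 folds the 4 regions of the locus ranked 1, 3, 115 and 161 among the 552.

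The enrichment did not run on into the surroundings. Within 100 kb on both sides of the MMP25 span the 4 lists held 58, 66, 58 and 56 called peaks outside it, and 0 were enriched. On the minus strand the nearest called peak below the span lay between 15066 and 16615 nt away and the nearest above it between 55072 and 68393 nt away, and the nearest peaks of both strands had log2 folds from -1.59 to 2.00. Of 29 neighbouring gene spans, each counted over its whole length, 13 held a called peak and 0 an enriched one. PKMYT1, a kinase that holds back CDK1 before mitosis, had 77 called peaks and a highest log2 fold of 3.0, and ZNF213-AS1, another antisense RNA gene, had 47 and 3.32. FLYWCH1, a zinc finger gene whose span runs beyond the 100 kb, had 64 and 3.17 over all of that span. The other 10 neighbours with a peak stayed at or below 2.58. The next protein-coding genes above the locus, IL32, a cytokine gene, and ZSCAN10, a zinc finger transcription factor gene, held 0 called peaks.

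The other genes of the metalloproteinase system held no enriched peak. A list of 28 genes took in 23 matrix metalloproteinases, the 4 tissue inhibitors TIMP1 to TIMP4 and RECK, a membrane-anchored inhibitor of several of the enzymes. Of these, with peaks of both strands counted, 15 held a called peak and 1, the span of MMP25, an enriched one. Its 80 enriched peaks lay on the minus strand, opposite to MMP25, and 0 lay on the plus strand. Over all 20982 gene spans with a called peak, 1.50% held a region enriched in all 4 replicates and 6.20% an enriched peak. The count of 1 in the list is fixed by the choice of the locus and says nothing about the family.

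The genes named next were picked after their values were seen. Among the membrane-type enzymes, MMP17, the other one with a glycosylphosphatidylinositol anchor, held 12, 15, 10 and 13 called peaks in replicates 1 to 4 and a highest log2 fold of 2.00. MMP24, MMP16, MMP15 and MMP14, which cross the membrane, held 31, 30, 14 and 3 called peaks over the 4 lists, with highest log2 folds of 1.00, 1.59, 1.00 and 1.59. TIMP3, an inhibitor bound to the matrix, held 165 called peaks and TIMP2 87, with highest values of 2.00 and 1.59. The 13 listed genes with no called peak include the collagenases MMP1 and MMP13 and the gelatinase MMP2.

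The locus was set beside other genes with an annotated antisense partner. Of 1605 pairs of a gene and its -AS1 gene with overlapping spans, 897 had a called peak in the shared part and 19 an enriched one. A region enriched in all 4 replicates was found in 3 pairs, or 0.334% of the 897. In the pair of PHC2, a Polycomb group protein gene, the region at chromosome 1, 33354893 to 33355376, lay on the strand of the antisense gene, as in MMP25. Its log2 folds were 4.86, 4.73, 4.46 and 5.00 (mean 4.76 ± 0.23, SD, n = 4), below those of the strongest minus-strand region of the MMP25 locus in all 4 libraries. In the pair of ACVR2B, an activin receptor gene, the region at chromosome 3, 38454574 to 38454852, lay on the strand of the gene and varied more, at 5.32, 3.0, 5.67 and 4.52 (mean 4.63 ± 1.19, SD, n = 4).

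The genes most like the locus were taken as those with the smallest Euclidean distance, over the 4 libraries, between their highest enriched log2 fold and that of the MMP25 span on the minus strand, among 401 spans and strands enriched in all 4. The nearest was SNAP47, a SNARE-related gene, with 7.69, 6.72, 6.59 and 7.05 in replicates 1 to 4 and a distance of 1.95 log2 units. CARS2, the mitochondrial cysteinyl-tRNA synthetase gene, followed at 7.57, 6.57, 6.39 and 7.08 and a distance of 2.11. PFDN1, a prefoldin subunit gene, TBCD, a tubulin folding cofactor gene, and EPB41L2, a protein 4.1 family gene, lay at 2.38, 2.51 and 2.62. Each of these 5 was enriched on the strand that the start table gives for the gene itself. The signal inside the MMP25 span lay opposite to MMP25, but on the strand listed for MMP25-AS1 and LOC124900372. Relative to those genes it was therefore on their own strand as well. EPB41L2 exceeded the locus in replicates 1 to 3, at 8.13, 8.08 and 7.69, and fell short of it in replicate 4 at 6.04, so its order relative to the minus strand of the locus is not settled by 4 libraries.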

How the data were processed

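The authors deposited 1 peak list per IP library, each paired with its own input, with no header. Per the submitters' processing notes, reads were handled with UMI-tools 1.1.1, cutadapt 3.2 and STAR 2.7.7a on hg38 and GRCh38.p13. The peak caller, the test and the scaling are not given in the sources used here. The deposited log2 values were read as the fold of IP over input and the deposited −log10 values as its p-value, both from their ranges (the latter stops at 400). Different scaling between lists would move all folds of a list together. Depth is unknown.

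Peaks were placed by midpoint in RefSeq spans of GRCh38.p14, merged by overlap of at least 1 nt on the same strand, and counted per library, with mean and SD over 4. No test was run on the locus, since it was chosen on its fold. Gene strand came from the start table where listed and for MMP25 from the rule of selection. The members and lists were chosen with earlier results of these data known. Named genes are both members, genes overlapping or within 100 kb, listed metalloproteinase genes with an enriched region, up to 5 -AS1 pairs with a region in all 4 and the 5 genes most like the locus. Merging and overlap code was tested on simulated data with planted peaks. Python 3.11.15, numpy 2.4.6, pandas 2.3.3 and matplotlib 3.10.9 were used.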

Additional observations from a re-analysis of the deposited data

Results flagged for a closer look

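Of 51 values taken over the 4 libraries, 6 had a library standing apart by Dixon's criterion. Chance alone flags about 1 in 20 where values are independent and normally distributed. Several of the 51 are small, tied or nested counts, so that rate does not apply strictly here. Replicate 2 had 25 enriched minus-strand peaks in the locus against 18, 18 and 19. In the stretch nearest to the antisense start it had 7 enriched peaks against 1, 2 and 2, and 594 nt under them against 29, 65 and 59. These 3 values share the same peaks and are not separate signs. Replicate 2 was also the library with 1 called peak, and the others with 0, in a stretch of 9 nt at 3051632 to 3051640. It lies beyond the annotated end of MMP25-AS1 at 3052125. Replicate 1 was lowest in the stretch at that annotated end, with a highest log2 fold of 2.58 against 4.00, 3.81 and 3.81. Its median log2 fold on the plus strand was -0.000866 against 1.00 in the other 3, where a median rests on 5 to 8 peaks.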

How the results depend on the processing

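Of 81 alternative values for the results of the locus, 71 stayed within the margin (1.5 times for a count, 1 SD for other values), 10 moved beyond it and 0 reversed. The 71 include values that could not move, so their number is not a measure of stability. The metalloproteinase list stayed at 1 in all 9 of its settings, which the choice of the locus fixed. The plus-strand count stayed at 0, since no plus-strand peak passed a log2 fold of 2.58 or a −log10 p of 0.903. The 4 regions enriched in all 4 replicates became 11 when peaks were joined only at 50% mutual overlap, since the abutting peaks of the strongest regions then count singly, and 4 or 5 without 1 replicate. The sharing of 81.7% became 89.7% when only a log2 fold of 4 or more was asked for, 64.7% at 50% mutual overlap and 94.2% in the strongest stretch alone, and 80.2% to 85.5% without 1 replicate. The strongest region's mean log2 fold of 7.87 became 7.34 for the peak with the highest −log10 p, 6.30 as a length-weighted mean and 6.47 over the 431 nucleotides enriched in all 4. Without 1 replicate it was 7.35 to 7.96, with 7.35 without replicate 4, because replicates 1 to 3 share a border at 3054345 and the region parts there. The -AS1 pairs went from 3 to 6 when a log2 fold of 1 was enough, and to 2 at a log2 fold of 4 or more with no limit on p. Without 1 replicate they numbered 3 or 4. In the start window, which no called peak overlapped, GCATG gave 1 match and TGCATG 0, and the sequence under the peaks was not searched. The alternative restricted to the strongest stretch was chosen after seeing the data. No paired analysis was possible because the pairing of IP and input is already inside every value of the lists. Placing peaks by overlap in place of midpoint was not run for the -AS1 pairs. Counts were not analysed, so depth sets no stated limit on a single fold.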
